A study of Mus musculus with 10 samples.

Results

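The 9 genes described here encode enzymes that turn squalene epoxide into cholesterol by way of lanosterol: Lss, Cyp51, Tm7sf2, Msmo1, Nsdhl, Hsd17b7, Ebp, Sc5d and Dhcr7. They were taken by gene symbol from a table of 54343 genes, and all 9 symbols had a row. The table gives FPKM, fragments per kilobase of gene and scaled to the mapped fragments of the library, from RNA sequencing of 2 mouse tumour lines in culture, with 5 libraries of MC38 and 5 of MC38.T4. MC38 is the parental line as bought, labelled wild type. MC38.T4 descends from MC38 cells that carried a human mesothelin expression vector and had been sorted as single clones, grown about 25 days as tumours in C57/BL6 mice, returned to culture for 10 generations and cloned again from 1 cell with low mesothelin, so the line is 1 clone, and its genotype label gives low mesothelin. Both lines were grown in RPMI1640. The labels record similar growth of the lines in culture and faster growth of MC38.T4 in mice. The series title places SSBP4 and cholesterol synthesis at the centre of the study, and the comparison asks how the transcripts of the late sterol enzymes differ between the lines.

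In background terms, lanosterol synthase (Lss) folds squalene epoxide into lanosterol, the first sterol. The remaining enzymes, most of them in the endoplasmic reticulum membrane, strip surplus methyl groups from the ring and move and reduce its double bonds. The genes are known targets of the SREBP transcription factors, which are released when membrane sterol falls. NF-Y and SP1 are known partners of SREBP at many of these promoters. The Bloch and Kandutsch-Russell branches pass different intermediates through the same ring enzymes. None of the 9 genes therefore belongs to 1 branch alone, and their transcript levels give no comparison of the branches.

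The promoter windows of 4 members are shown because they belong to 3 partners of 1 enzyme complex that changed by unequal amounts and to the least abundant member. Each window runs from 250 bases before the RefSeq start to 50 bases after it, on the strand of the gene, in build GRCm38.p6. Capitals mark CCAAT (the NF-Y motif), GGGCGG (the SP1 motif), CACGTG (an E-box) and TCACNCNAC (a relaxed form of the SREBP motif), each on either strand.
Msmo1 (chr8:64733529-64733828, minus strand): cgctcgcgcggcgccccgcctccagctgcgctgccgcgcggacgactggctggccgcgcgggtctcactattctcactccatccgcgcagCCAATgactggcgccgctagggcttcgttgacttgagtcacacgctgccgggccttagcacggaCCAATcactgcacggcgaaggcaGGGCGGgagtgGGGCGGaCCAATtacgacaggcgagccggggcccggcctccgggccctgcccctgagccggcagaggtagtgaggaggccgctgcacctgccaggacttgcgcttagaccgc
Nsdhl (chrX:72918271-72918570, plus strand): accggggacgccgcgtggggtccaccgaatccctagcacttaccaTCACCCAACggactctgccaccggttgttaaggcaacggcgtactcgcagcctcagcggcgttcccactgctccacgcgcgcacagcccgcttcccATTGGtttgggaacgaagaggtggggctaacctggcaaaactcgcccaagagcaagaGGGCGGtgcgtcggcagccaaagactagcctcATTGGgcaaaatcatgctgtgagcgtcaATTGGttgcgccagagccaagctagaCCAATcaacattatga
Hsd17b7 (chr1:169969156-169969455, minus strand): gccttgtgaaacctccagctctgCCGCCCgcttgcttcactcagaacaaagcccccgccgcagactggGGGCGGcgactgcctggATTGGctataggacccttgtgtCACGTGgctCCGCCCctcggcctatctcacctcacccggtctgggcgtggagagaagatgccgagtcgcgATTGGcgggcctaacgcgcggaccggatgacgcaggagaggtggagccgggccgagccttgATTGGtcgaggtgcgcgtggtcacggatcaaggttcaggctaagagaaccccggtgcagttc
Tm7sf2 (chr19:6067801-6068100, minus strand): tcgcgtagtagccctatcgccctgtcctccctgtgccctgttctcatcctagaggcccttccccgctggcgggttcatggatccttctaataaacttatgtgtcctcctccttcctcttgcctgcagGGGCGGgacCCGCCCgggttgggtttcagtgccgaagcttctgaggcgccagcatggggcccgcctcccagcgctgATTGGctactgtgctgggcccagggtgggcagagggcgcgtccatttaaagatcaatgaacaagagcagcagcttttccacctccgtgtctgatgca

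RefSeq gave 11 windows for the 9 members, 3 of them for Dhcr7 and 1 for each other gene. CCAAT, read on both strands, was present in at least 1 window of all 9 members and in 9 of the 11 windows, against 37.4% of all 32851 windows of the table and 38.9% of the 11085 windows of tested genes. GGGCGG was also present for all 9 members and in 10 of the 11 windows. Its share was 35.7% of all windows but 64.5% of those of tested genes. Counted by gene, at least 1 window held CCAAT in 44.3% of 8675 tested genes and GGGCGG in 71.5%. CACGTG was present in 3 of the 11 windows, 1 each of Hsd17b7, Sc5d and Dhcr7, against 7.15% of all windows and 10.2% of those of tested genes. The SREBP forms TCACCCCAC and TCACNCCAC, both contained in the relaxed form, were in none of the 11 windows, against 0.551% and 1.24% of all windows. The relaxed form TCACNCNAC was in 1 window, that of Nsdhl, as TCACCCAAC, against 2.70% of all windows. Matches to the NF-Y, SP1 and E-box motifs did not overlap one another in these windows (0 overlaps). The Msmo1 window held 3 CCAAT matches, the Nsdhl window 4 and the Hsd17b7 window 3. A match is a description of letters, and no binding was measured. Only these written forms were searched, so a window without a match may still hold an SREBP site of another form.

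**Figure D1:**
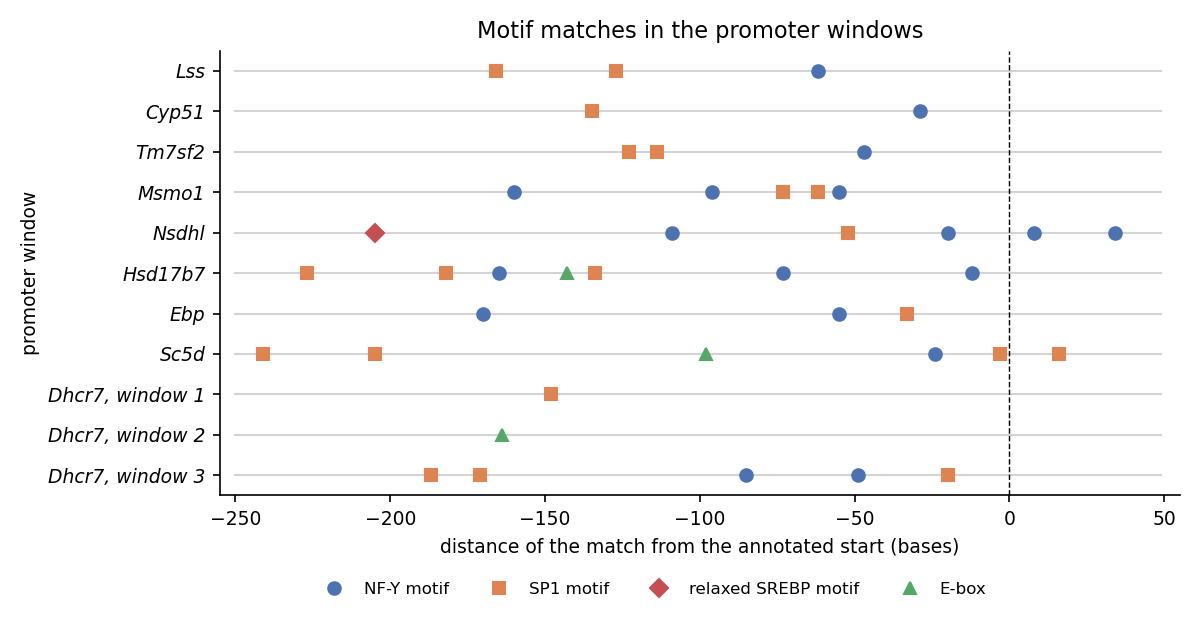
Motif matches in the RefSeq promoter windows of the 9 genes (build GRCm38.p6), 1 line per window; the x axis is the distance in bases of the first base of each match from the annotated start (dashed line) and the symbols stand for the motif. Every gene had an NF-Y and an SP1 motif in at least 1 window, beside 44.3% and 71.5% of tested genes with a window. The relaxed SREBP motif was found in Nsdhl alone, and SREBP sites of other forms were not searched.

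Libraries held between 10723 and 10938 genes at an FPKM of at least 1, and FPKM summed to between 442183 and 484460. The depth of the libraries is unknown, because the table holds no read totals, and no counting interval can be set on a value. Separate cultures are not stated for the 5 libraries of a line, so the p-values measure the spread between these libraries, which may be technical. MC38 replicate 1 had the lowest FPKM sum, and Malat1 (124.8 FPKM) and the mitochondrial share (6.85% of FPKM) were highest in replicate 4 of MC38.T4. The tissue label reads melanoma and the library names read colon. None of 10 epithelial markers passed the filter described next (Cdx2 at 0 in every library, Cdh1 the highest at 1.10 FPKM), and none of 6 melanocyte markers did (Tyr at 0, Pmel the highest at 0.591). The lists summed to 0.201 to 0.463 FPKM in MC38 and 1.30 to 1.65 in MC38.T4 for the epithelial markers, and to 0.377 to 0.712 and 0.160 to 0.225 for the melanocyte markers. The highest value of any of 6 leukocyte markers was 0.0614 FPKM. None of 4 endothelial markers passed either, with Pecam1 the highest at 0.573 FPKM. Of 6 fibroblast markers, 4 passed the filter and all 4 were higher in MC38.T4, beside 43.1% of all tested genes. Col1a2 (at most 0.0551 FPKM in MC38) and Pdgfrb (at most 0.238) passed only through MC38.T4, so the filter fixed their direction. Pdgfra (means 12.4 FPKM in MC38 and 24.5 in MC38.T4) and Dcn (16.8 and 58.1) passed in both lines. Thy1 was at 0 in every library. The list summed to 28.1 to 31.6 FPKM in MC38 and 100.02 to 109.0 in MC38.T4, and what part this had in the sterol gene differences was not tested. In bulk RNA, fewer cells of a kind and less RNA per cell cannot be told apart.

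Transcripts of all 9 members were more abundant in MC38.T4 than in MC38. Every MC38.T4 library lay above every MC38 library for each of the 9 genes. The summed FPKM of the 9 genes averaged 84.4 ± 2.8 for MC38 and 218.6 ± 10.4 for MC38.T4 (SD over 5 libraries of each). Of the 9 members, 8 passed the filter (5 or more of the 10 libraries at 1 FPKM or above), and all 8 rose in limma's test with Benjamini-Hochberg adjustment over 11110 genes. The background is high: 43.1% of all tested genes were called higher in MC38.T4, and 42.9% were called lower. The non-overlap seen for the 8 tested members was seen, in this direction, for 38.4% of tested genes. A log2 change of at least 1 was reached by 5 of the 8 (Msmo1, Nsdhl, Lss, Dhcr7 and Cyp51), against 10.0% of tested genes. The median log2 change of the 8 was 1.07, against 0.00 over all tested genes, and ranged from 0.31 for Hsd17b7 to 2.31 for Msmo1. Log2 changes here and below subtract MC38 from MC38.T4 after adding 1 to each FPKM, so they are too small for genes of low level. The members had been chosen with earlier results of these libraries known, so their shared direction is a description.

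**Figure D2:**
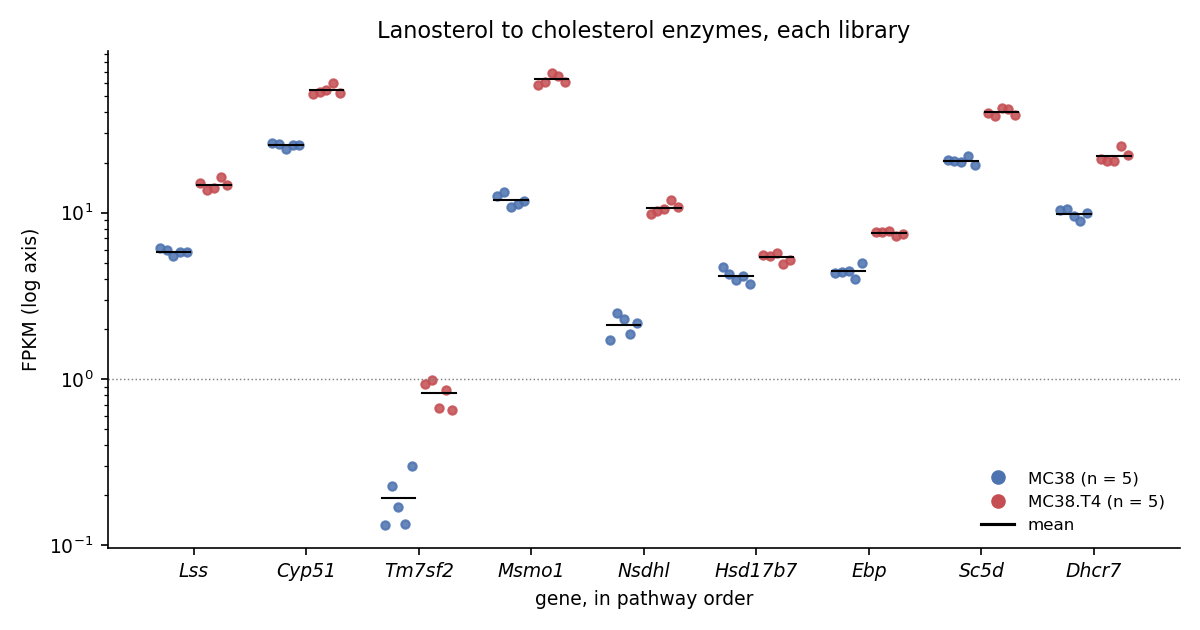
FPKM (log axis) of the 9 genes in pathway order, 1 point per library, MC38 in blue and MC38.T4 in red (n = 5 each), with black bars at the means and a dotted line at 1 FPKM. The groups do not overlap for any gene; the gap is widest for Msmo1 and Nsdhl among tested genes and narrowest for Hsd17b7.

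The enzymes at the entry differed in level far more than in direction. Lss lay between 5.50 and 6.11 FPKM in MC38 and between 13.6 and 16.4 in MC38.T4, a rise of 2.53-fold in the means (log2 change 1.20, SE 0.05, limma adjusted p = 3.16e-12). Cyp51, the P450 enzyme that removes the first methyl group of lanosterol, stood at 26.1, 26.0, 24.2, 25.5 and 25.4 FPKM in MC38 replicates 1 to 5 and at 52.0, 52.7, 54.2, 60.2 and 52.5 in those of MC38.T4. It was the most abundant member in MC38, and its lowest MC38.T4 library lay at nearly 2 times the level of its highest MC38 library (log2 change 1.06, SE 0.04, limma adjusted p = 2.25e-12). The transcript ratio of Cyp51 to Lss fell from 4.36 ± 0.06 to 3.69 ± 0.19 (SD, n = 5 each), so Lss rose slightly more than Cyp51 (log2 difference -0.24, exact permutation p = 0.00794, two-sided, adjusted p = 0.0127 over 8 ratios). This exact p is the smallest that 5 libraries against 5 allow, and each of the 9 genes also reached it in the test of its own mean.

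Tm7sf2 encodes 1 of a pair of reductases that act on the product of Cyp51. It stood at 0.132, 0.228, 0.169, 0.135 and 0.301 FPKM in MC38 and at 0.939, 0.988, 0.672, 0.859 and 0.653 in MC38.T4. It never reached 1 FPKM, so it was left out of the filtered test, and its means differed 4.26-fold. In a fit without the filter it rose (log2 change 0.61, SE 0.06, limma adjusted p = 7.85e-06), against a background there of 25.6% of 26597 genes. The other reductase is Lbr, the lamin B receptor, a protein of the inner nuclear membrane. Lbr averaged 12.3 ± 0.64 FPKM for MC38 and 19.9 ± 1.2 for MC38.T4 (SD over 5 libraries each), with a log2 change of 0.65 (SE 0.05, limma adjusted p = 2.39e-09). FPKM is scaled by gene length, so the levels can be set side by side: the ratio of Tm7sf2 to Lbr was 0.0160 ± 0.0068 in MC38 and 0.0413 ± 0.0069 in MC38.T4, and Lbr was the main C14-reductase transcript in all 10 libraries. The ratio did not overlap between the lines (log2 difference 1.45, exact permutation p = 0.00794, two-sided, adjusted p = 0.0127 over 8 ratios). With a pseudocount of 1, which exceeds every Tm7sf2 value, the ratio's difference was -0.04 (adjusted p = 0.587), so this result rests on values below 1 FPKM.

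The 3 partners that remove the methyl pair at ring position C4 rose by very unequal amounts, and their order by level changed. Msmo1 is the oxidase that starts each removal, Nsdhl the dehydrogenase that expels the carboxyl group, and Hsd17b7 the reductase that restores the hydroxyl group. Msmo1 stood at 12.5, 13.4, 10.8, 11.3 and 11.7 FPKM in MC38 and at 58.9, 61.2, 68.7, 65.8 and 61.2 in MC38.T4. Its rise of 5.29-fold was the largest of the members (log2 change 2.31, SE 0.06, limma adjusted p = 1.51e-14) and took rank 103 among the 11110 tested genes by size of rise. Nsdhl stood at 1.72, 2.49, 2.30, 1.86 and 2.16 FPKM in MC38 and at 9.84, 10.3, 10.6, 11.9 and 10.8 in MC38.T4, a rise of 5.07-fold (log2 change 1.91, SE 0.07, limma adjusted p = 8.32e-13). Nsdhl was thus the least abundant of the tested members in every MC38 library and exceeded Ebp and Hsd17b7 in every MC38.T4 library. Hsd17b7 stood at 4.73, 4.27, 3.93, 4.15 and 3.74 FPKM in MC38 and at 5.53, 5.49, 5.75, 4.90 and 5.22 in MC38.T4. Its groups came close without meeting, and its rise of 1.29-fold was the smallest of the members (log2 change 0.31, SE 0.06, limma adjusted p = 9.89e-05).

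The ratio of Nsdhl to Hsd17b7 averaged 0.512 ± 0.101 for MC38 and 2.00 ± 0.26 for MC38.T4 (SD over 5 libraries each). Nsdhl was the scarcer transcript in all 5 MC38 libraries (highest ratio 0.585) and Hsd17b7 the scarcer in all 5 MC38.T4 libraries (lowest ratio 1.78), with a log2 difference of 1.98 (exact permutation p = 0.00794, two-sided, adjusted p = 0.0127 over 8 ratios). The ratio of Msmo1 to Hsd17b7 went from 2.88 ± 0.24 to 11.8 ± 1.1, a log2 difference of 2.03 with the same p-values. The ratio of Msmo1 to Nsdhl was 5.77 ± 0.96 in MC38 and 5.93 ± 0.37 in MC38.T4, and these ranges overlapped (log2 difference 0.05, exact permutation p = 0.651, two-sided, adjusted p = 0.651). With a pseudocount of 1, the scale of the log2 changes of single genes, the same ratio differed by 0.40 and passed (exact permutation test, adjusted p = 0.0127). This call depends on the pseudocount, because adding 1 shrinks the rise of Nsdhl (mean 2.11 FPKM in MC38) more than that of Msmo1 (11.9). In shares of the summed FPKM of the 3 genes, Hsd17b7 went from 22.9% ± 1.7 to 6.81% ± 0.57, Msmo1 from 65.5% ± 1.2 to 79.7% ± 0.64, and Nsdhl from 11.6% ± 1.7 to 13.5% ± 0.75. Erg28, which encodes a scaffold of this complex, rose from 20.4 ± 1.5 to 27.2 ± 2.6 FPKM (log2 change 0.40, SE 0.06, limma adjusted p = 2.68e-05), a size nearer to that of Hsd17b7.

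**Figure D3:**
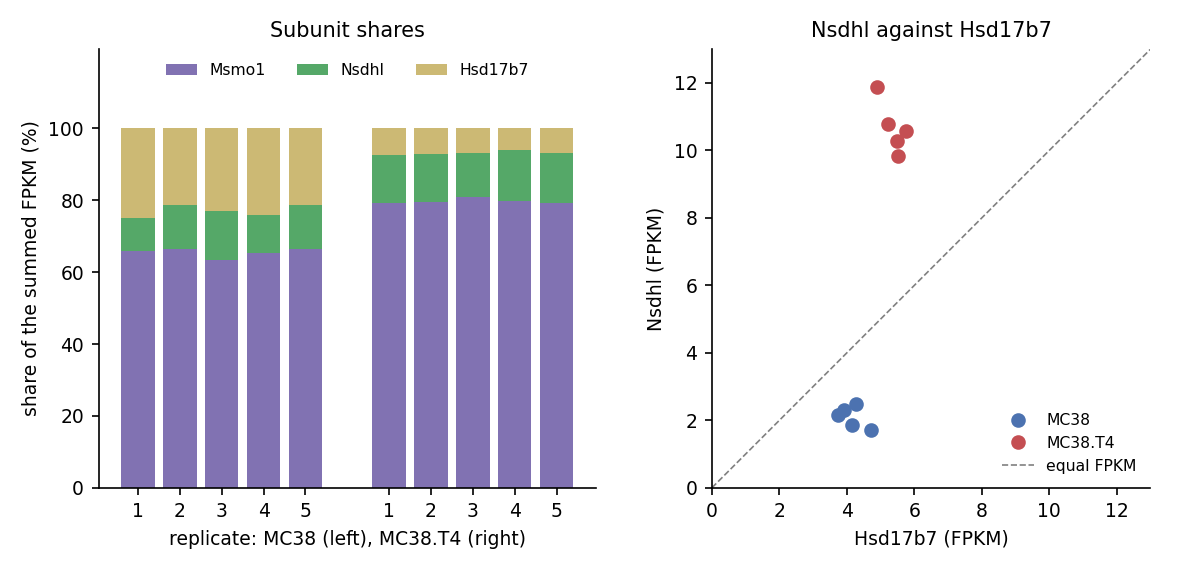
Left, share of each of Msmo1, Nsdhl and Hsd17b7 in the summed FPKM of the 3 genes, 1 bar per library (MC38 left, MC38.T4 right, the number under each bar being the replicate); right, Nsdhl against Hsd17b7 in FPKM, 1 point per library, with a dashed line of equal level. MC38 libraries lie below the line (Nsdhl to Hsd17b7 ratio at most 0.585) and MC38.T4 libraries above it (at least 1.78), and the Hsd17b7 share is smaller in MC38.T4.

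The last 3 enzymes rose by 1.70-fold to 2.21-fold in the means. Ebp is the isomerase that shifts the ring double bond, and it is also known as the emopamil-binding protein. It lay between 4.00 and 5.01 FPKM in MC38 and between 7.19 and 7.70 in MC38.T4, a rise of 1.70-fold (log2 change 0.65, SE 0.05, limma adjusted p = 4.72e-09). Its homologue Ebpl, which has no known isomerase activity, stood at 0.538 ± 0.049 and 0.568 ± 0.047 FPKM, below the filter, and its groups overlapped (fit without the filter: log2 difference 0.03, SE 0.04, limma adjusted p = 0.542). The ratio of Ebp to Ebpl accordingly went from 8.27 ± 0.74 to 13.3 ± 1.2 (log2 difference 0.69, exact permutation p = 0.00794, two-sided, adjusted p = 0.0127). Sc5d, the desaturase that makes 7-dehydrocholesterol from lathosterol, lay between 19.3 and 21.8 FPKM in MC38 and between 38.2 and 42.7 in MC38.T4, a rise of 1.96-fold (log2 change 0.94, SE 0.04, limma adjusted p = 9.09e-12). Dhcr7, the reductase that makes cholesterol from 7-dehydrocholesterol, stood at 10.4, 10.6, 9.54, 8.87 and 9.91 FPKM in MC38 and at 21.1, 20.3, 20.4, 25.1 and 22.3 in MC38.T4. It rose 2.21-fold (log2 change 1.07, SE 0.06, limma adjusted p = 1.63e-10), and replicate 4 stood highest in MC38.T4.

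Neither ratio between these last enzymes passed the test. The ratio of Dhcr7 to Sc5d was 0.483 ± 0.046 in MC38 and 0.544 ± 0.047 in MC38.T4 (log2 difference 0.17, exact permutation p = 0.0794, two-sided, adjusted p = 0.0907 over 8 ratios). The ratio of Ebp to Sc5d was 0.217 ± 0.028 and 0.188 ± 0.011 (log2 difference -0.20, exact permutation p = 0.0476, two-sided, adjusted p = 0.0635). Each crossed the threshold when 1 library was left out: Dhcr7 to Sc5d without MC38.T4 replicate 3 (log2 difference 0.22, adjusted p = 0.0212) and Ebp to Sc5d without MC38 replicate 4 (-0.26, adjusted p = 0.0106). Of the 8 ratios, 5 passed, and by size the 2 changes that set Hsd17b7 apart from its partners exceeded the others. How often ratios of other gene pairs would pass was not computed. With 43.1% of tested genes called higher and 42.9% called lower, the count of 5 is a description only.

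Ordered by mean FPKM in MC38, the members ran Cyp51 (25.4), Sc5d (20.5), Msmo1 (11.9), Dhcr7 (9.86), Lss (5.83), Ebp (4.43), Hsd17b7 (4.16), Nsdhl (2.11) and Tm7sf2 (0.193). Neighbours in this order did not overlap across the 5 libraries, except Ebp and Hsd17b7, where Ebp was higher in 3 of 5. In MC38.T4 the order was Msmo1 (63.2), Cyp51 (54.3), Sc5d (40.2), Dhcr7 (21.8), Lss (14.8), Nsdhl (10.7), Ebp (7.52), Hsd17b7 (5.38) and Tm7sf2 (0.822). Here Msmo1 and Cyp51 overlapped in range, although Msmo1 was the higher in each of the 5 libraries. Msmo1 moved up 2 places and Nsdhl 2 places, and the highest tested member exceeded the lowest 12.1-fold in MC38 and 11.7-fold in MC38.T4. The gene at the top of the order changed from Cyp51 to Msmo1, and the lowest tested gene from Nsdhl to Hsd17b7.

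The steps before squalene epoxide rose as well. All 9 reported genes of this arm were called higher, beside 43.1% of all tested genes, and 7 of them by a log2 change of at least 1, beside 10.0%. Their median was 1.61, that of the tested members 1.07 and that of all tested genes 0.00. Fdps, which makes farnesyl diphosphate, and Mvk, mevalonate kinase, had the largest changes (3.03 and 2.40 on the log2 scale). Sqle, which makes squalene epoxide and so feeds Lss, had the smallest (0.26, SE 0.04, limma adjusted p = 9.09e-06), at 42.1 ± 1.0 and 50.5 ± 2.5 FPKM. In MC38 Sqle stood above every member, while in MC38.T4 both Msmo1 and Cyp51 had higher means. The remaining changes were 2.14 for Idi1, 1.91 for Acat2, 1.61 for Fdft1, 1.20 for Mvd, 1.15 for Hmgcs1 and 0.84 for Pmvk.

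**Figure D4:**
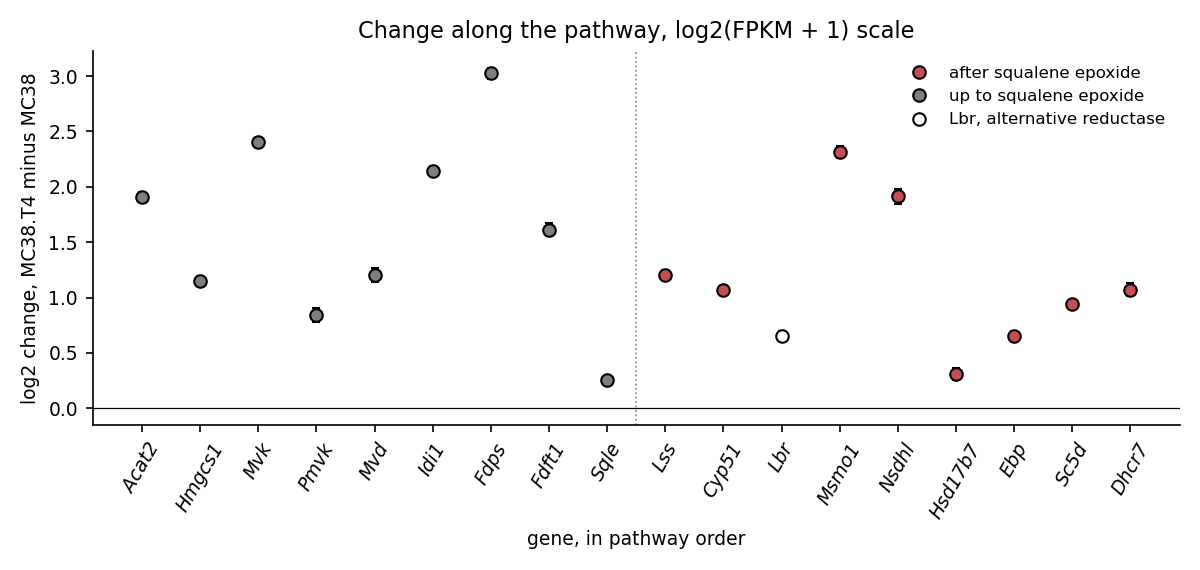
Log2 change (MC38.T4 minus MC38, log2(FPKM + 1) scale, bars ± SE, n = 5 libraries per line) of the reported genes in pathway order, grey up to squalene epoxide, red after it, white for Lbr; the dotted line separates the arms, and Tm7sf2, below the filter, is not drawn. All lie above 0, and Sqle (0.26) and Hsd17b7 (0.31) lie lowest.

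Some of the late enzymes, among them Cyp51, Msmo1 and Sc5d, draw electrons from cytochrome P450 reductase or cytochrome b5. Genes for these partners were called in both directions, as tested genes were in general. Of 9 reported redox partners, sterol-binding partners and scaffolds, all tested, 6 rose and 3 fell, with a median log2 change of 0.40, beside 43.1% called higher and 42.9% called lower over all tested genes. Cyb5a, the b5 isoform of the endoplasmic reticulum, which serves Sc5d and Msmo1, rose from 7.15 ± 0.53 to 28.9 ± 1.3 FPKM (4.04-fold). Cyb5b, its mitochondrial counterpart, rose from 49.2 ± 3.2 to 111.5 ± 2.8 FPKM (2.27-fold). Por, the reductase that supplies Cyp51, rose only from 23.7 ± 1.8 to 27.7 ± 0.82 FPKM (log2 change 0.22, SE 0.05, limma adjusted p = 0.00057). The b5 reductase gene Cyb5r3 rose (log2 change 0.45), while Cyb5r1 fell from 176.3 ± 5.6 to 65.1 ± 3.8 FPKM (-1.43). Pgrmc1, a haem protein that binds P450 enzymes including Cyp51, fell from 98.0 ± 4.4 to 62.2 ± 2.8 FPKM (-0.65), and Pgrmc2 fell also (-0.49). Tmem97 (0.50), whose protein is a sterol-binding relative of Ebp, also rose.

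Of 10 reported genes for sterol sensing and enzyme turnover, all tested, 6 rose and 4 fell (median log2 change 0.60), beside 43.1% and 42.9% of all tested genes, so calls in both directions are not particular to this list. The rises were Insig1 (9.82 ± 0.45 to 39.5 ± 2.1 FPKM), which retains the SREBP escort and is itself an SREBP target, Srebf1 (12.8 ± 0.62 to 37.3 ± 1.3), Srebf2 (20.7 ± 1.2 to 41.7 ± 1.4), the activating protease gene Mbtps1 (18.6 ± 0.91 to 45.1 ± 0.82), Insig2 (log2 change 0.77) and the escort gene Scap (0.44). The falls were the second protease gene Mbtps2 (-0.61) and 3 genes of protein degradation at the endoplasmic reticulum. Of these, Marchf6, a ubiquitin ligase that targets squalene epoxidase, fell from 37.1 ± 3.2 to 19.1 ± 0.27 FPKM (-0.92, SE 0.05, limma adjusted p = 6.20e-11), and Ubxn4 (-0.51) and Rnf139 (-0.48) fell by less. Among genes of oxysterol and bile acid synthesis and of cholesterol esterification, 5 of 8 were below the filter and Cyp7b1 was listed at 0 in every library. Also below it, Cyp46a1 lay between 0.253 and 0.391 FPKM in MC38 and between 0.805 and 1.36 in MC38.T4. In the fit without the filter it rose (log2 change 0.58, limma adjusted p = 3.09e-05), beside 25.6% of 26597 genes. The ranges of Ch25h, Cyp27a1 and Cyp39a1 overlapped between the lines. Of the 3 tested, Hsd3b7 rose (0.60), while the esterification genes Soat1 (-0.95) and Soat2 (-0.43) fell.

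Within a line, the members did not all follow the same library. In MC38.T4, replicate 4 was highest for 4 members (Lss, Cyp51, Nsdhl and Dhcr7) and lowest for 2 (Hsd17b7 and Ebp), and replicate 3 was highest for the remaining tested genes (Msmo1, Hsd17b7, Ebp and Sc5d). The 60.2 FPKM of Cyp51 in replicate 4 lay apart from the 52.0 to 54.2 of the other MC38.T4 libraries. Without MC38.T4 replicate 4 and MC38 replicate 1, a choice made after seeing the data, all 8 tested members were still called higher, with changes of 1.04 for Cyp51, 1.04 for Dhcr7 and 0.37 for Hsd17b7. The same 8 ratios gave 5 that passed, with a difference of 1.79 for Nsdhl to Hsd17b7 (exact permutation test, adjusted p = 0.0457).

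By position, the members lie on 8 chromosomes, with Nsdhl and Ebp both on X. Among the 5 tested genes on either side of each member, by gene order in RefSeq GRCm38.p6, the median log2 change was 0.42 beside Nsdhl and 0.59 beside Ebp, with 8 of 10 neighbours called higher in each case. Over the X chromosome as a whole, 169 of 362 tested genes were higher and 129 lower, with a median of 0.09. Beside Msmo1 the median was -0.09, with 2 higher and 5 lower. Beside Lss it was -0.40, beside Cyp51 -0.06, beside Dhcr7 -0.08, beside Hsd17b7 0.11, beside Sc5d 0.24 and beside Tm7sf2 0.27. Of the 10 neighbours, 5 had a larger change than Ebp, 4 than Hsd17b7, 2 each than Lss and Sc5d, 1 each than Nsdhl and Tm7sf2, and 0 than Cyp51, Msmo1 and Dhcr7. Nsdhl and Ebp were therefore the members whose neighbours most often moved in the same direction, and what part this had in their rises was not tested.

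The genes most like the members were found by the root mean square difference, over the 10 libraries, between a gene's centred log2(FPKM + 1) values and the mean profile of the 8 tested members, among 8207 genes with a mean of at least 5 FPKM in no list used here, leaving out ribosomal protein and provisional symbols. They were Sdc2, a heparan sulphate proteoglycan gene (0.0260), Vcam1, an adhesion receptor gene (0.0275), Acat1, a mitochondrial thiolase gene (0.0347), Gne, of sialic acid synthesis (0.0396), and Stn1, of telomere maintenance (0.0455). For comparison, the same distance was 0.0514 for Lss, 0.0681 for Cyp51, 0.0869 for Dhcr7 and 0.567 for Msmo1. The profile is dominated by the difference between the lines, which many genes share.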

How the data were processed

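Cultured MC38 and MC38.T4 cells (5 libraries each) were sequenced from polyA RNA with a stranded kit, per the labels' protocols. The authors deposited 1 table of FPKM per gene symbol and library, with no pooled column. The submitters' processing notes name build GRCm39 and DESeq2, with no role. Aligner, counter, annotation, filters and the handling of reads shared between similar genes were not given in the sources used here. Columns were matched to samples by library name, and no 2 columns were identical (0 pairs).

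From the deposited FPKM, log2(FPKM + 1) values of genes that reached 1 FPKM in 5 or more of the 10 libraries were fitted by group with limma 3.58.1 in R 4.3.3 (trend and robust moderation, two-sided, Benjamini-Hochberg adjustment, threshold 0.05); the code was tested on simulated data. Ratios of 2 transcripts within a library had an exact permutation test, adjusted over 8 of 10 planned pairs; 1 partner symbol was not matched in the table. Python 3.11.15, pandas 2.3.3, NumPy 2.4.6 and matplotlib 3.10.9 were used. Some genes of the lists, and 1 planned pair, are not reported here. Protein sequences were not used here. Members, gene lists and tests were chosen with earlier results of these data known. Named genes are the 9 members, the genes of the pathway lists and the 5 genes most like the members. Promoter windows come from RefSeq GRCm38.p6, another build than that of the authors, and were matched by symbol; no table coordinate was converted. Alternatives were other pseudocounts, filters and scalings, plain eBayes, the replicate block and leaving out libraries.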

Additional observations from a re-analysis of the deposited data

Results flagged for a closer look

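In 108 groups of 5 libraries (each named gene or ratio within a line), 10 had 1 library apart from the rest by Dixon's criterion (a gap to the nearest library above 0.71 of the range); chance gives about 1 in 20. In MC38.T4 replicate 4, Cyp51 stood at 60.2 FPKM (others 52.0 to 54.2), Sqle at 54.9 (48.9 to 49.9) and Cyb5r1 at 71.6 (62.1 to 64.4). Without that library the log2 changes were 1.03 for Cyp51, 0.23 for Sqle and -1.46 for Cyb5r1, all still called by limma. In MC38 replicate 1, Marchf6 stood at 42.8 FPKM (35.3 to 36.2) and Mbtps1 at 20.2 (17.9 to 18.5), and without it their changes were -0.87 and 1.26. In MC38.T4 replicate 3, Idi1 stood at 42.1 FPKM (37.8 to 38.5) and Mvk at 15.2 (14.04 to 14.3). The others were Acat2 in MC38 replicate 3 (9.45 FPKM, others 7.98 to 8.33), Srebf1 in MC38 replicate 4 (11.8, others 13.0 to 13.4) and Tmem97 in MC38.T4 replicate 1 (46.5, others 49.96 to 51.2).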

How the results depend on the processing

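The 8 tested members kept their direction and call in all 151 values computed under 19 alternatives, and Hsd17b7 came closest to the threshold (adjusted p = 0.00344 with quantile normalization, where its log2 change was 0.20). With a minimum FPKM of 5, Hsd17b7 was not tested and 7 members were called; with no filter 9 were. No scaling moved the median of all genes by more than 0.05 (rescaling to TPM, -0.05). Leaving out 1 library at a time gave 4721 to 4845 higher and 4679 to 4779 lower calls. Whether replicate numbers pair the libraries cannot be decided from 5 pairs. Deviations of same-numbered libraries correlated between -0.13 and 0.14, beside -0.26 to 0.16 for other pairs. Of the 5, 2 correlated best with their own number. With the replicate block, 4784 genes were higher and 4750 lower, and 8 members were called. For the ratios, the paired exact test cannot go below 0.0625 with 5 pairs, so 0 of 8 passed there against 5. The Tm7sf2 to Lbr ratio reversed with a pseudocount of 1 (-0.0448), and that of Msmo1 to Nsdhl without MC38 replicate 3 (-0.0154); with a pseudocount of 1 the latter was 0.40 (adjusted p = 0.0127) and Ebp to Sc5d -0.29 (adjusted p = 0.0212). Low FPKM of Tm7sf2 and Nsdhl, with no read totals, limits their precision.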
